A study of Mus musculus with 4 samples.

Results

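The genes described here are 39 members of the hypoxia-inducible factor (HIF) system and of glycolysis, followed across the cells of mouse sarcomas from hosts given vehicle or digoxin. They were chosen by symbol, and all 39 were present among the 17992 genes of the malignant-cell table and the 16349 genes of the table of non-malignant cells. By role, 6 are HIF subunits or regulators of HIF, 3 are sugar or lactate transporters, 18 are glycolytic enzymes or enzymes that set the rate or the fate of glycolysis, and 12 are other genes known as HIF targets.

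HIF is a dimer of an alpha subunit, encoded by Hif1a or Epas1, and a beta subunit, encoded by Arnt. In oxygenated cells the prolyl hydroxylases, among them the products of Egln1 and Egln3, mark the alpha subunit for capture by the product of Vhl and for degradation, so that HIF is controlled mainly at the protein level and the Hif1a transcript need not follow its activity. When oxygen is short the dimer binds a short DNA core in its target genes, which include most glycolytic enzymes, glucose and lactate transporters, and Egln1 and Egln3 themselves. Digoxin is a cardiac glycoside that blocks the sodium pump and is known to lower HIF-1 alpha protein in cultured cells.

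The labels describe sarcomas of the hind limb with genotype KrasLSL-G12D/+;Trp53flox/flox and background strain 129/SvJae, grown as an allograft. Vehicle hosts received PBS by intraperitoneal injection, and digoxin hosts received the drug at 2 mg/kg, from a DMSO stock diluted in PBS. Injections were given every 24 h, and tumors were taken after the fourth dose. Each group held 2 mice, and the age of the hosts, the number of tumor lines or clones and the way recombination was induced were not given in the sources used here. Tumors were dissociated for 45 min at 37 °C with collagenase, dispase and trypsin, and cells were captured with the 10x Genomics 3′ V3 kit, in which captured molecules carry unique molecular identifiers (UMIs). A 3′ kit counts a molecule once whatever its length, but levels are compared below only for 1 gene across populations or mice, not between genes.

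There were 18963 malignant cells, 3976 to 6269 per mouse with a median of 46799 to 57658 UMIs per cell, and 12648 non-malignant cells, 3014 to 3344 per mouse with a median of 15837 to 16671 UMIs. Values are mean CPM, a gene's share of the UMIs of a cell on the usual CPM scale, averaged over the cells of a mouse. Population names are the authors'. Cells named Epithelial had 0.122 CPM of the epithelial gene Epcam and 888 CPM of the endothelial gene Cdh5, and cells named Microglia had 1.43 CPM of the microglial gene Tmem119 and 2449 CPM of Siglech, so both are called "labelled" cells here. Cells named Neutrophil held 12364 to 17631 CPM of the 7 macrophage markers per mouse beside 7327 to 121328 CPM of the 5 neutrophil markers, and in vehicle replicate 2 the macrophage markers were the higher. The 7 macrophage markers checked summed to 22739 CPM in the macrophages and to 418 to 564 CPM in the malignant cells of single mice. Lyz2 made up 12694 CPM of the sum in macrophages. Which of the markers carried the sum in cells named Neutrophil was not examined. Vehicle replicate 2 stood apart from the other hosts. Xist, the RNA of the inactive X chromosome, was at 635, 0.161, 752 and 753 CPM in the macrophages of vehicle replicates 1 and 2 and digoxin replicates 1 and 2. Ddx3y, on the Y chromosome, was at 1.86, 87.7, 1.74 and 2.28 CPM in the same cells. This is the pattern of a male host in vehicle replicate 2 and of female hosts otherwise. The sex of the hosts thus differed within the vehicle group, and its part in the differences below was not tested. The malignant cells carried the Y-linked gene Ddx3y at 43.1 to 49.3 CPM in every mouse, and Xist at 16.4, 0.462, 16.9 and 15.3 CPM in the same order of mice. Pairs of libraries shared 14 to 25 cell barcodes. The median mitochondrial share of a cell was lower in both digoxin mice in 9 of the 12 populations tested, and overlapped between groups in T cells, NK cells and labelled Microglia.

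The DNA core bound by HIF is ACGTG or GCGTG, and it was searched on both strands in the 250 bases upstream of annotated starts in RefSeq (GRCm38.p6, the same assembly as mm10). ACGTG is also part of the E-box CACGTG. Of the 39 members, 34 had a promoter entry, and 40 of their 51 promoters (78.4%) held a core, against 38.6% of all 32851 promoters. The members' promoters were richer in G and C, with a median of 62.8% against 52.4%. Among promoters with at least 60% G and C, 28 of 31 of the members' (90.3%) and 63.8% of all held a core. A match is a description of the letters and no evidence of binding. The 6 promoters printed here belong to the members on which the results below turn, with each core in capitals, as CACGC or CACGT where it lies on the other strand.
Egln1 (chr8:124949255-124949504, minus strand): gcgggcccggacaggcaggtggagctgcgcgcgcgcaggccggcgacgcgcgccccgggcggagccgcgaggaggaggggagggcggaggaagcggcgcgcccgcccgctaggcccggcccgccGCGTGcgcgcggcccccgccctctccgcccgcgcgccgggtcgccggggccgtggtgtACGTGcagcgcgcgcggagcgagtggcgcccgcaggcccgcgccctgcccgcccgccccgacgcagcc
Egln3 (chr12:54203875-54204124, minus strand): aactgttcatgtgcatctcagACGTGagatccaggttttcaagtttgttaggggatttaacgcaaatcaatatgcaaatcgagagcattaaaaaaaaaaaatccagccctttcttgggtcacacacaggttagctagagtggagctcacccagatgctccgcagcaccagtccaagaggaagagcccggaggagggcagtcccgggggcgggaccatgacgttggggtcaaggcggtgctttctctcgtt
Slc2a1 (chr4:119108495-119108744, plus strand): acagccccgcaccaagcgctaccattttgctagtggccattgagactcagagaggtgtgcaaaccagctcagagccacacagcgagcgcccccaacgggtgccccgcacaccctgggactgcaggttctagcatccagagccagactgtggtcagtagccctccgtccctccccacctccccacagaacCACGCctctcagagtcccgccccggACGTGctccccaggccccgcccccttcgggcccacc
Slc16a3 (chr11:120948817-120949066, plus strand): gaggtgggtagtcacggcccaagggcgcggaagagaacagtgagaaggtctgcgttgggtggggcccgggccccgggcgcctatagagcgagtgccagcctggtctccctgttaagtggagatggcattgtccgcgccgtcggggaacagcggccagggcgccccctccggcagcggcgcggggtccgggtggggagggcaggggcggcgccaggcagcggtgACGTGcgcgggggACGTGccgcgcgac
Bnip3 (chr7:138909507-138909756, minus strand): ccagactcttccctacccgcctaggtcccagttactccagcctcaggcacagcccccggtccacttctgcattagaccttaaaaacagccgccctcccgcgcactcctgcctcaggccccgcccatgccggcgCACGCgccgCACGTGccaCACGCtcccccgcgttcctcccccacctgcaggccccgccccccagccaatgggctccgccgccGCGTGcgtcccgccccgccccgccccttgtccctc
Ankrd37 (chr8:45999851-46000100, minus strand): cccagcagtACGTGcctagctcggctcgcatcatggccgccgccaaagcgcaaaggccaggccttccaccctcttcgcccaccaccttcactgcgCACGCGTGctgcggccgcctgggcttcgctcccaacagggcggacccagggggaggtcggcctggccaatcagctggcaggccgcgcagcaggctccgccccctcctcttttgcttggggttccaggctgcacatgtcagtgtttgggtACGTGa
All windows end at the base before the annotated start. Bnip3 held 5 core matches on either strand and Ankrd37 held 4, while Egln1, Slc2a1 and Slc16a3 held 2 each and Egln3 held 1, at position -229 from the start. In Slc16a3 both lay close to the start, at -27 and -14.

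The members were unevenly spread over the 13 populations compared, and neutrophils had the highest mean for 13 of the 39. This is a description with no test, since the authors made the populations from the expression of these same cells. Means and SDs of levels are over all 4 mice, vehicle and digoxin together, so the SDs include any difference between the groups. Dendritic cells and fibroblasts were highest for 6 each, osteoclasts for 5, labelled Epithelial cells for 4, M1 macrophages and malignant cells for 2 each and T cells for 1. The neutrophils numbered 5 to 34 per mouse, the dendritic cells 10 to 21 and the B cells 4 to 18, so that their means rest on few cells. Because the sum of the macrophage markers was also high in the cells named Neutrophil, the count was repeated without these cells. M1 macrophages then led for 8 members, dendritic cells, fibroblasts and malignant cells for 6 each, and labelled Epithelial cells and osteoclasts for 5 each.

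**Figure D1:**
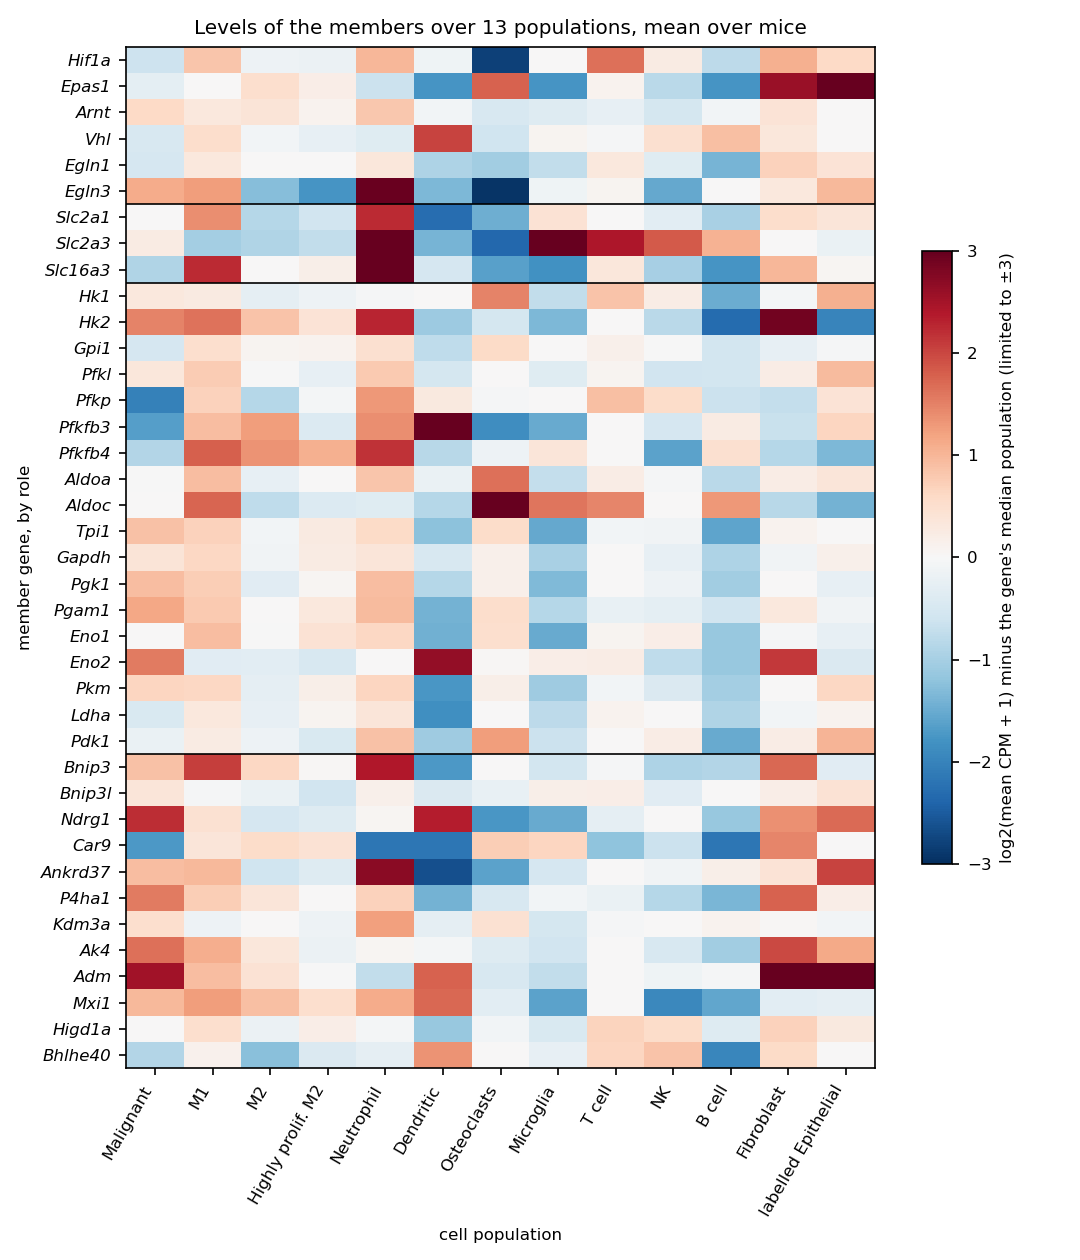
Heat map of the 39 members (rows, separated by role: regulators, transporters, glycolysis, other HIF targets) over 13 populations (columns). Colour is log2(mean CPM + 1), averaged over mice, minus the gene's median over populations and limited to 3 either way. Slc2a1, Slc16a3 and Egln3 stand out in neutrophils and M1 macrophages, Epas1 and Adm in fibroblasts and labelled Epithelial cells, and Pfkfb3 in dendritic cells.

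Among the regulators, Hif1a had its highest mean in T cells, at 576 ± 79.5 CPM (SD, n = 4), and was at 119.8 ± 2.61 CPM (SD, n = 4) in malignant cells and 25.4 CPM in osteoclasts. Epas1, which encodes HIF-2 alpha, was at 285 ± 35.7 CPM (SD, n = 4) in labelled Epithelial cells and at 19.3 CPM in fibroblasts, the next highest population. It was at 1.79 CPM in malignant cells and 3.10 CPM in macrophages. Vhl was highest in dendritic cells at 57.7 ± 24.8 CPM (SD, n = 4), and B cells followed at 25.8 ± 14.2 CPM (SD, n = 4). Arnt ran from 21.0 CPM in NK cells to 54.3 ± 16.8 CPM (SD, n = 4) in neutrophils, with malignant cells at 46.8 ± 5.90 CPM (SD, n = 4). Egln1 was highest in fibroblasts at 64.4 ± 33.9 CPM (SD, n = 4), with labelled Epithelial cells at 52.2 ± 11.8 CPM (SD, n = 4) and neutrophils at 49.9 ± 19.97 CPM (SD, n = 4). These 3 do not differ beyond their spread, which mixes vehicle and digoxin mice. Egln3 was highest in neutrophils at 65.7 ± 50.1 CPM (SD, n = 4), followed by M1 macrophages at 19.3 ± 9.21 CPM (SD, n = 4) and malignant cells at 17.4 ± 3.47 CPM (SD, n = 4), and was at 0.124 CPM in osteoclasts.

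The transporters shared their leading population. Slc2a1, the glucose transporter GLUT1, was at 239.8 ± 144 CPM (SD, n = 4) in neutrophils and 132 ± 29.4 CPM (SD, n = 4) in M1 macrophages. Slc16a3, the lactate exporter MCT4, was at 465 ± 115 CPM (SD, n = 4) in neutrophils, 202 ± 45.2 CPM (SD, n = 4) in M1 macrophages and 22.0 CPM in malignant cells. Slc2a3, the glucose transporter GLUT3, was at 86.7 ± 42.8 CPM (SD, n = 4) in neutrophils and 45.9 ± 14.3 CPM (SD, n = 4) in labelled Microglia, but at 1.81 CPM in macrophages.

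The 2 aldolase genes led in the same population, and the 2 hexokinase genes in different ones. Aldoa, the main aldolase, was at 1365 ± 144 CPM (SD, n = 4) in osteoclasts, and Aldoc was at 71.0 ± 23.2 CPM (SD, n = 4) there. Hk1 was also highest in osteoclasts, at 93.6 ± 5.84 CPM (SD, n = 4), whereas Hk2, the inducible hexokinase, was at 224 ± 46.2 CPM (SD, n = 4) in fibroblasts and 19.9 CPM in osteoclasts. Pfkfb3, which makes the activator of phosphofructokinase, was at 409 ± 149 CPM (SD, n = 4) in dendritic cells and at most 42.9 CPM in any of the other 12 populations. Tpi1 and Pgam1 were highest in malignant cells, at 532 ± 17.8 CPM and 662 ± 23.0 CPM (SD, n = 4), and Gapdh and Eno1 in M1 macrophages, at 1862 ± 210 CPM and 431 ± 65.3 CPM (SD, n = 4). Pgk1, Pkm and Ldha led in neutrophils by less than their spread. Gapdh, Pgk1, Ldha, Eno1, Pkm, Tpi1, Aldoa and Pgam1 have near-identical pseudogene copies, and reads split between copies would make their UMIs uncertain.

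The other HIF targets differed in the populations that carried them. Adm, which encodes the vasodilator peptide adrenomedullin, was at 79.4 ± 34.3 CPM (SD, n = 4) in labelled Epithelial cells and 72.5 ± 30.6 CPM (SD, n = 4) in fibroblasts, against 8.56 CPM in malignant cells. Ndrg1, a stress-responsive gene, was at 261 ± 82.7 CPM (SD, n = 4) in dendritic cells and 234 ± 31.3 CPM (SD, n = 4) in malignant cells. P4ha1, a collagen prolyl hydroxylase, was at 195 ± 52.4 CPM (SD, n = 4) in fibroblasts and 169 ± 8.77 CPM (SD, n = 4) in malignant cells, and these means lie within their spread. Car9, the membrane carbonic anhydrase often used as a hypoxia marker, was at 0.358 CPM in malignant cells, 5.14 CPM in macrophages and 11.4 ± 11.9 CPM (SD, n = 4) in fibroblasts.

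Macrophages named M1 carried more of the module than those named M2. The M1 mean lay above the M2 mean in all 4 mice for 27 of the 38 members with at least 1 CPM in either, and below it in all 4 for 3, Epas1, Pfkfb3 and Kdm3a. Over 11786 genes the shares were 19.4% above and 50.0% below. The median log2 difference, M1 minus M2, was 0.70 over the 39 members and -0.19 over all genes, with medians of 2.22 over the transporters, 0.76 over the glycolytic genes, 0.59 over the other targets and 0.44 over the regulators. Slc2a1 was at 132 CPM in M1 and 27.2 CPM in M2 macrophages, Slc16a3 at 202 CPM and 42.0 CPM, and Egln3 at 19.3 CPM and 2.54 CPM. Aldoc was at 16.9 CPM in M1 and 2.16 CPM in M2 macrophages, Bnip3, which encodes a mitochondrial protein of mitophagy, at 87.5 CPM and 31.5 CPM, and Ankrd37 at 19.4 CPM and 5.84 CPM. Pfkp, a phosphofructokinase, was at 147 CPM and 49.7 CPM, Bhlhe40, a transcriptional repressor, at 148 CPM and 56.5 CPM, and Hif1a itself at 328 CPM and 166 CPM. On the other side, Epas1 was at 2.40 CPM in M1 and 3.85 CPM in M2 macrophages, Pfkfb3 at 30.4 CPM and 38.9 CPM, Kdm3a at 18.8 CPM and 20.8 CPM, and Car9 at 4.80 CPM and 5.62 CPM. Without vehicle replicate 2, 5 members in place of 3 were lower in M1 cells in every mouse, and the share of all genes was 56.4%. The M1 cells had a median of 12918 to 14702 UMIs and the M2 cells 16329.5 to 17650 UMIs, and the median mitochondrial share was 3.74% to 4.63% in M1 and 5.22% to 7.46% in M2 cells. The part of depth and cell quality in these levels was not tested. The names M1 and M2 are the authors' and fit the markers only in part. The 6 M1 markers summed to 3896 CPM in M1 and 765 CPM in M2 cells, and the 6 M2 markers to 2128 and 3150 CPM. Of the M2 markers, Arg1 and Chil3 were higher in M1 cells, at 1046 and 455 CPM against 380 and 19.1 CPM. Mrc1, Cd163, Retnla and Folr2 were higher in M2 cells. The M1 marker Tnf was at 68.5 and 66.9 CPM.

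**Figure D2:**
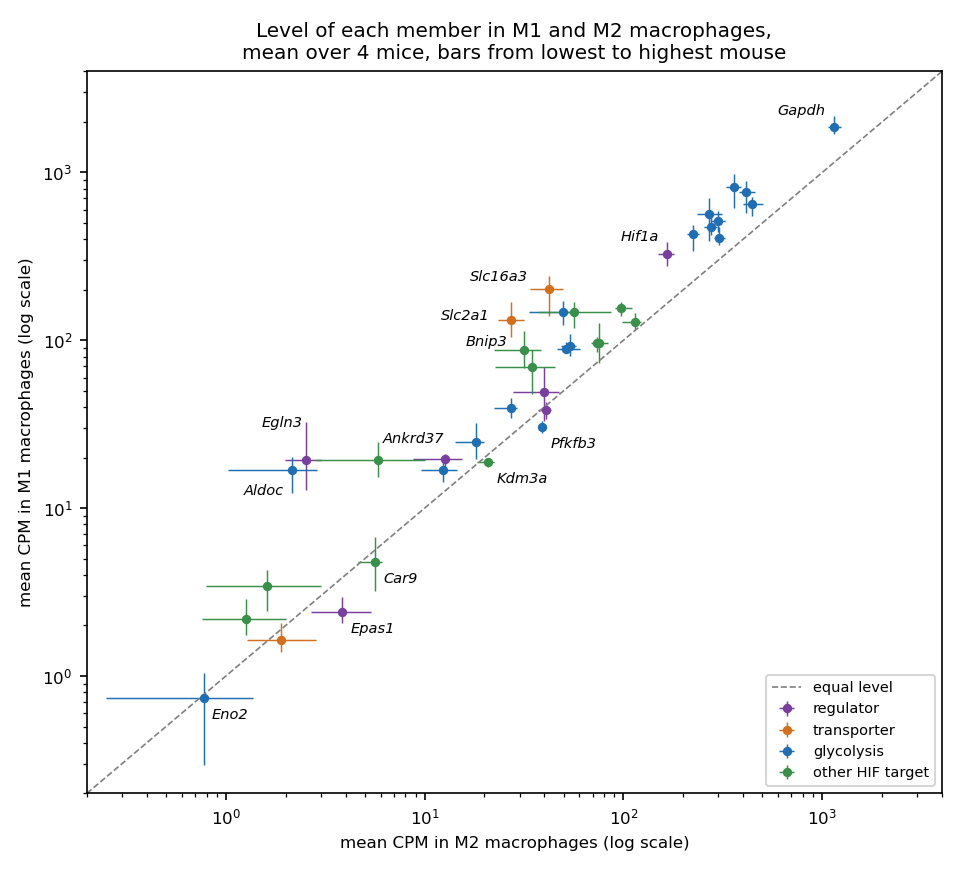
Mean CPM of each member in M2 (horizontal, log scale) and M1 macrophages (vertical, log scale), with bars from the lowest to the highest of 4 mice and colour by role. Most points lie above the dashed line of equal level. Epas1, Pfkfb3 and Kdm3a lie below it, with M1 lower in all 4 mice. Arnt, Slc2a3, Eno2 and Car9 also lie below it by their means, but not in every mouse.

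Malignant cells and macrophages divided the members without an overall direction. The malignant mean lay above the macrophage mean in all 4 mice for 16 of 39 members, against 48.9% of 12890 genes, and below it for 13, against 40.5%. Members higher in malignant cells included Ndrg1 at 234 CPM against 49.0 CPM, Adm at 8.56 CPM against 1.53 CPM, P4ha1 at 169 CPM against 81.0 CPM, and Bnip3l, a mitophagy receptor, at 169 CPM against 117 CPM. Kdm3a, a histone demethylase, was at 30.1 CPM against 19.8 CPM, and the adenylate kinase gene Ak4 at 5.54 CPM against 2.24 CPM. Eno2, the enolase form known from neurons, was at 5.52 CPM against 0.752 CPM, and Slc2a3 at 5.41 CPM against 1.81 CPM. Higher in macrophages were Slc16a3 at 111 CPM against 22.0 CPM, Pfkp at 94.6 CPM against 21.7 CPM, Pfkfb3 at 31.9 CPM against 4.33 CPM, Pfkfb4 at 20.3 CPM against 3.08 CPM, and Gpi1, glucose phosphate isomerase, at 348 CPM against 199.7 CPM. Pfkl, the liver-type phosphofructokinase, was at 66.0 CPM and 66.4 CPM. Without vehicle replicate 2, the number below in every one of the 3 mice left was 20 in place of 13, and the share of all genes was 42.7%.

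The members were also compared across single cells at equal depth. Each malignant cell was thinned to 20000 UMIs and each macrophage to 8000 UMIs, leaving out shallower cells, and Spearman's rho was averaged over the 4 mice. The strongest pair in malignant cells was Pgam1 with Ldha, at 0.714, and the median over 496 pairs of 32 members was 0.110. In M1 macrophages the strongest pair was Aldoa with Gapdh, at 0.656, and the median over 465 pairs was 0.107, while in M2 macrophages it was Gapdh with Eno1, at 0.333, with a median of 0.0403 over 378 pairs. The scarcer gene of the strongest pair had a mean of 7.49 UMIs in malignant cells, 4.96 in M1 and 1.74 in M2 cells, so the populations differ in level as well. Among genes with a mean of at least 1 UMI at these depths in every mouse, the median rho over pairs of glycolytic members was 0.415 in malignant cells (11 genes), 0.486 in M1 (9 genes) and 0.244 in M2 macrophages (9 genes). Over all pairs of such genes it was 0.0104 for 2567 genes, 0.00563 for 1018 and 0.00490 for 1028 in the same order. These sets share the minimum but were not matched in level, and the part of level in the contrast was not tested. In malignant cells the 7 members of other roles had a median of 0.144. Cells of a mouse share a library, so these values describe the libraries and carry no p.

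Digoxin was first compared with vehicle in malignant cells. None of the 39 members passed limma at an adjusted p of 0.05 (0.0% of 17138 genes did), and 4 members had an unadjusted p under 0.05 (3.41% of all genes). Of these, Egln1 and Hk2 were higher (1.65% of all genes) and Ankrd37 and Bhlhe40 lower (1.77% of all genes). Egln1 and Hk2 lay above vehicle in both digoxin mice (12.8% of all genes did) and 13 members lay below it in both (16.5% of all genes did). Without vehicle replicate 2 the numbers were 12 above (28.2% of all genes) and 16 below (34.5%), and without vehicle replicate 1 they were 4 above (36.6%) and 26 below (39.8%). The median log2 difference was -0.09 over the members and -0.01 over all genes, but -0.02 over the members without vehicle replicate 2. By edgeR no member passed, and DESeq2 called Egln1 alone (0.263% of all genes).

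**Figure D3:**
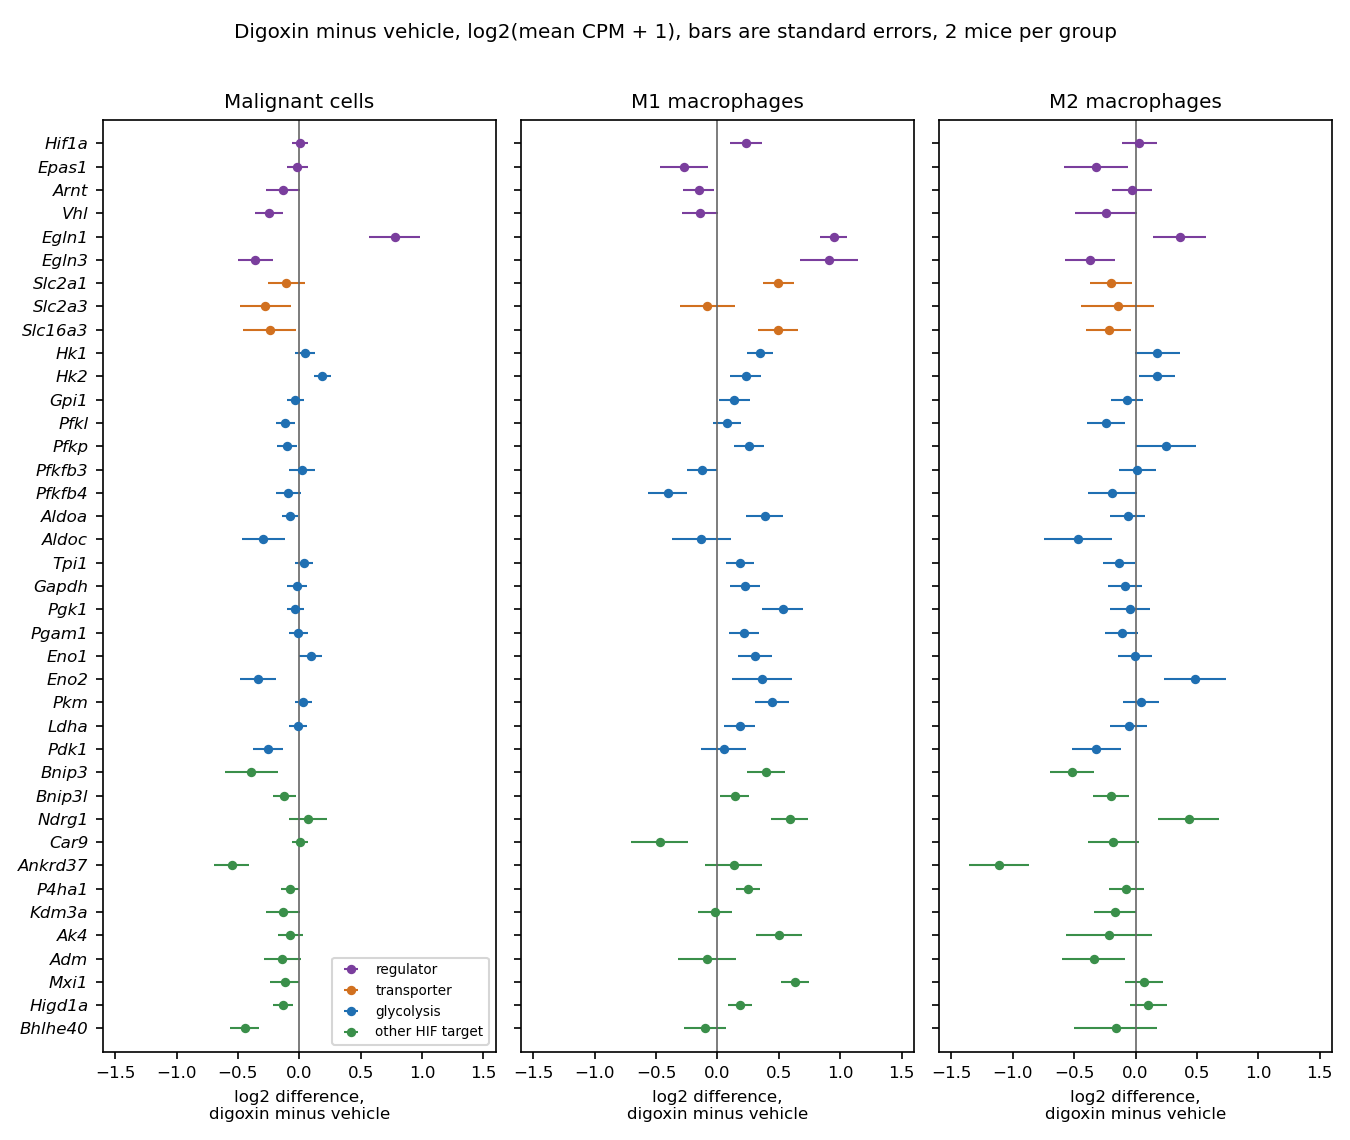
Log2 difference, digoxin minus vehicle, of log2(mean CPM + 1) for each member in malignant cells, M1 and M2 macrophages, with standard errors from limma and 2 mice per group. Egln1 is at 0.78 in malignant cells, 0.95 in M1 and 0.36 in M2 macrophages, and no member passed the adjusted test in any panel.

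In malignant cells Egln1, which encodes the prolyl hydroxylase PHD2, was at 17.2, 22.3, 28.3 and 41.4 CPM in vehicle replicates 1 and 2 and digoxin replicates 1 and 2, the order used for all sets of 4 values below. Both digoxin mice were higher, with a log2 difference of 0.78 (limma SE 0.207, adjusted p 0.9999) and 0.51 to 1.04 with 1 mouse left out. DESeq2 on summed UMIs gave 0.96 with an adjusted p of 0.0035. Egln3, the hydroxylase PHD3, was at 17.2, 22.3, 15.97 and 14.2 CPM, lower in both digoxin mice, with a log2 difference of -0.36 (SE 0.143), which ran from -0.54 without vehicle replicate 1 to -0.18 without vehicle replicate 2. The 2 hydroxylase genes thus lay on opposite sides of vehicle. Vhl was at 10.1, 10.4, 9.16 and 7.81 CPM, a small difference in the same direction as Egln3. Hif1a, at 118, 121, 123 and 117 CPM, and Epas1, at 1.79, 1.82, 1.76 and 1.79 CPM, overlapped between groups. Arnt, at 45.0, 52.7, 50.1 and 39.3 CPM, overlapped as well.

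The malignant transporters overlapped between groups. Slc2a1 was at 43.9, 60.1, 48.9 and 46.5 CPM, Slc2a3 at 4.62, 7.56, 4.81 and 4.64 CPM, and Slc16a3 at 29.9, 18.5, 20.2 and 19.3 CPM. In each case 1 vehicle mouse was the highest of the 4. Among glycolytic genes Hk2 was at 76.5, 80.7, 89.7 and 89.5 CPM, a log2 difference of 0.19 (SE 0.0677, unadjusted p 0.036 by limma). The enzymes of the main chain differed little: the log2 differences of Gpi1, Aldoa, Tpi1, Gapdh, Pgk1, Pgam1, Eno1, Pkm and Ldha ran from -0.07 for Aldoa to 0.09 for Eno1. Pgk1 was at 641, 651, 623 and 640.1 CPM, and Ldha at 392, 369, 365 and 390.3 CPM. Pdk1, a pyruvate dehydrogenase kinase, was at 12.5, 14.1, 11.9 and 10.1 CPM, and Eno2 at 5.72, 6.82, 5.29 and 4.24 CPM, both lower in both digoxin mice.

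Among the other targets in malignant cells, Ankrd37 was at 19.6, 26.0, 15.2 and 15.0 CPM, with a log2 difference of -0.55 (limma SE 0.143, adjusted p 0.9999), and -0.36 without vehicle replicate 2. Bhlhe40 was at 85.8, 82.9, 68.9 and 55.2 CPM, with a log2 difference of -0.45 (SE 0.116), and -0.29 without digoxin replicate 2. For both, the digoxin mice lay below the vehicle mice. Bnip3 was at 34.6, 52.0, 36.5 and 28.3 CPM, Ndrg1 at 192, 268, 236 and 240.2 CPM, Adm at 7.78, 10.3, 7.89 and 8.25 CPM and Car9 at 0.328, 0.384, 0.428 and 0.290 CPM. All 4 overlapped between groups. The macrophage markers in these cells summed to 547, 564, 418 and 433 CPM in the same order of mice, lower in both digoxin mice. Of 17 marker lists, 4 lay below vehicle in both digoxin mice and 2 above. The others below were the sarcoma cell markers at 3085, 3079, 2723 and 2468 CPM, the fibroblast markers at 5610, 5733, 4688 and 4117 CPM and the osteoclast markers at 112, 155, 106 and 93.1 CPM. The sarcoma cell and fibroblast lists share Col1a1 and Pdgfra. Of the sarcoma cell markers only Col1a1, at 1905, 1755, 1506 and 1335 CPM, was lower in both digoxin mice. Pdgfra, Cdkn2a and Des overlapped between groups. Above were the neutrophil markers at 11.5, 11.7, 31.6 and 19.5 CPM and the endothelial markers at 5.59, 5.99, 9.03 and 27.0 CPM. The median mitochondrial share was 5.797%, 5.93%, 5.58% and 5.19%, lower in both digoxin mice. The part of these shifts in the members' differences was not tested. Egln1, Ankrd37 and Bhlhe40 were at 43.8, 11.96 and 99.1 CPM in macrophages.

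In macrophages taken as a whole no member passed limma either (0.0% of 13734 genes did), 6 members had an unadjusted p under 0.05 (4.04% of all genes). All 6 were higher with digoxin (2.4% of all genes) and 0 lower (1.64% of all genes). Those 6 were Egln1, Egln3, Hk2, Mxi1, Ndrg1 and Slc2a1. Both digoxin mice lay above both vehicle mice for 17 of 39 members (13.6% of all genes) and below for 4 (17.3% of all genes). Of 17 marker lists, 3 lay above vehicle in both digoxin mice and 1, the B cell list, below. Those above were the 6 M1 markers at 2120, 1653, 2331 and 2220 CPM, the 5 neutrophil markers at 57.6, 45.4, 88.8 and 64.9 CPM and the mast cell markers at 2.53, 1.95, 3.51 and 4.04 CPM. Their part in the members' differences was not tested. The median log2 difference was 0.13 over the members and -0.01 over all genes, and it ran from 0.29 without vehicle replicate 1 and 0.08 without digoxin replicate 1 to 0.03 without vehicle replicate 2, when 18 members lay above the remaining vehicle mouse in both digoxin mice (24.6% of all genes did) and 11 below it (41.6%). Without vehicle replicate 1, 26 lay above (41.6%). By edgeR no member passed, while DESeq2 called Egln1 and Ndrg1 (0.146% of all genes).

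Egln1 was at 37.7, 29.1, 51.5 and 56.8 CPM in macrophages, a log2 difference of 0.69 (limma SE 0.153, adjusted p 0.9996, DESeq2 adjusted p 0.0181). Egln3 was at 7.37, 5.63, 16.4 and 9.23 CPM, a log2 difference of 0.84 (SE 0.273), which ran from 0.46 without digoxin replicate 1 to 1.23 without digoxin replicate 2. Ndrg1 was at 42.0, 35.0, 59.7 and 59.3 CPM, with a log2 difference of 0.62 (SE 0.129) and a DESeq2 adjusted p of 0.0230. All 3 were higher in both digoxin mice. Slc2a1 was at 67.0, 52.2, 94.2 and 76.2 CPM, Slc16a3 at 118, 68.9, 134 and 124 CPM, Hk2 at 62.8, 58.4, 80.5 and 69.2 CPM and Pgk1 at 428, 286, 483 and 431 CPM, without overlap between groups. For Slc16a3 and Pgk1 the gap was set by vehicle replicate 2, the lowest mouse. The log2 difference of Pgk1 was 0.38, and 0.09 without that mouse, and that of Slc2a1 was 0.51, and 0.33 without it. The log2 difference of Slc16a3 ran from 0.12 without vehicle replicate 2 to 0.89 without vehicle replicate 1, where limma called it at an adjusted p of 0.0337, together with Egln1 at 0.0484 among 132 genes called of 14181 (0.931%).

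The 4 members below vehicle in both digoxin mice in macrophages were Car9, Epas1, Kdm3a and Pfkfb4. Car9 was at 5.25, 6.30, 5.16 and 3.86 CPM, Pfkfb4 at 21.0, 23.1, 20.7 and 16.2 CPM and Kdm3a at 20.5, 20.8, 19.95 and 17.9 CPM, each lower in both digoxin mice by a small margin. Hif1a was at 246, 186, 272 and 232 CPM and Arnt at 39.2, 38.7, 40.7 and 35.2 CPM. Both overlapped between groups, as did Vhl at 17.2, 14.6, 16.8 and 12.3 CPM. Epas1 was at 3.98, 3.19, 2.38 and 2.87 CPM, lower in both digoxin mice. Slc2a3 at 2.27, 1.39, 1.66 and 1.93 CPM, Ldha at 589, 453, 572 and 553 CPM and Pdk1 at 15.3, 13.4, 15.8 and 11.6 CPM overlapped. Bnip3 was at 49.0, 48.8, 68.4 and 49.3 CPM, Ankrd37 at 13.7, 11.4, 13.6 and 9.19 CPM, Adm at 1.605, 1.55, 1.37 and 1.58 CPM and Bhlhe40 at 126, 73.2, 115 and 81.8 CPM. Of these only Bnip3 did not overlap between groups. The share of M1 cells among macrophages was 45.3%, 29.0%, 47.6% and 42.5%, lowest in vehicle replicate 2, and M1 cells carry more of these genes, so the sub-clusters are given apart.

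M1 macrophages had the largest share of members above vehicle of the 12 populations tested. No member passed limma (0.0% of 12182 genes did), but 14 of 39 had an unadjusted p under 0.05 (7.73% of all genes), 13 of them higher with digoxin (3.72% of all genes) and 1, Pfkfb4, lower (4.01% of all genes). Both digoxin mice lay above both vehicle mice for 21 members (15.3% of all genes) and below for 4, Car9, Epas1, Pfkfb3 and Pfkfb4 (24.0% of all genes), or for 7 without vehicle replicate 1 (38.7%). The median log2 difference was 0.22 over the members, with 28 positive and 11 negative, and -0.02 over all genes. It was 0.13 without vehicle replicate 2, when 23 members lay above the remaining vehicle mouse in both digoxin mice (24.6% of all genes did), 0.12 without digoxin replicate 1 and 0.27 without vehicle replicate 1. By edgeR no member passed, and DESeq2 called Egln1 and Mxi1 (0.345% of all genes).

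In M1 macrophages Egln1 was at 34.0, 32.9, 61.6 and 69.3 CPM, with a log2 difference of 0.95 (limma SE 0.114, unadjusted p 8.05e-05, adjusted p 0.196). The vehicle mice were close to each other and both digoxin mice lay above both of them. Egln3 was at 12.9, 12.8, 32.4 and 19.2 CPM, a log2 difference of 0.91 (limma SE 0.234, adjusted p 0.483), and 0.54 without digoxin replicate 1. Mxi1, a MYC antagonist, was at 76.7, 73.5, 108 and 127 CPM, a log2 difference of 0.64 (limma SE 0.114, adjusted p 0.464), and Ndrg1 was at 47.8, 62.9, 87.1 and 79.1 CPM. These 4 genes had the largest positive differences among the members in M1 cells. Of the transporters, Slc2a1 was at 113, 104, 169.7 and 139 CPM and Slc16a3 was at 198, 139.8, 241 and 229 CPM. Of the enzymes, Pgk1 was at 542, 390.3, 707 and 626 CPM, Pkm, pyruvate kinase, at 731, 572, 888 and 870.4 CPM, Aldoa at 812, 616, 974 and 877 CPM and Hk1 at 34.8, 34.3, 45.0 and 43.5 CPM. Bnip3 was at 68.6, 81.7, 113 and 86.5 CPM, P4ha1 at 90.4, 84.9, 104 and 104 CPM, and Ak4 at 2.88, 2.45, 4.06 and 4.28 CPM. Each of these lay above vehicle in both digoxin mice. On the other side Pfkfb4 was at 25.1, 32.0, 22.9 and 19.5 CPM and Pfkfb3 at 30.3, 33.2, 30.2 and 27.9 CPM. Without vehicle replicate 1 limma called 4 members, Egln1, Pgk1, Pkm and Slc16a3, of 224 genes called (1.77% of all genes). Of the members it called Egln1 alone without digoxin replicate 1 (0.746% of all genes), Egln3 alone without digoxin replicate 2 (0.257% of all genes), and 0 without vehicle replicate 2.

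Other measures also differed between the M1 cells of the groups. Their median mitochondrial share was 4.23%, 4.63%, 3.94% and 3.74%, lower in both digoxin mice, as it was in macrophages as a whole at 5.20%, 6.44%, 4.74% and 4.53%. The 5 neutrophil markers summed to 64.5, 61.8, 120.3 and 89.1 CPM in M1 cells, higher in both digoxin mice. Of 17 marker lists, 3 lay above vehicle in both digoxin mice and 4 below. The others above were the 6 M1 markers, at 3768, 3648, 4017 and 4150 CPM, and the 6 M2 markers, at 1854, 1258, 3377 and 2023 CPM, and below was the dendritic list, at 4986, 7153, 4658 and 3392 CPM, with the B cell, epithelial and erythroid lists. None of the neutrophil, M1, M2 or dendritic markers was at 0 over all mice in these cells, but Il12b was at 0 in digoxin replicate 1. Of the M2 markers, Arg1 was at 982, 396, 1818 and 987 CPM and Chil3 at 200, 312, 845 and 460 CPM. Mrc1, Cd163, Retnla and Folr2 overlapped between groups. The part of these shifts in the members' differences was not tested. With cells limited to 20% mitochondrial UMIs limma again called 0 members.

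**Figure D4:**
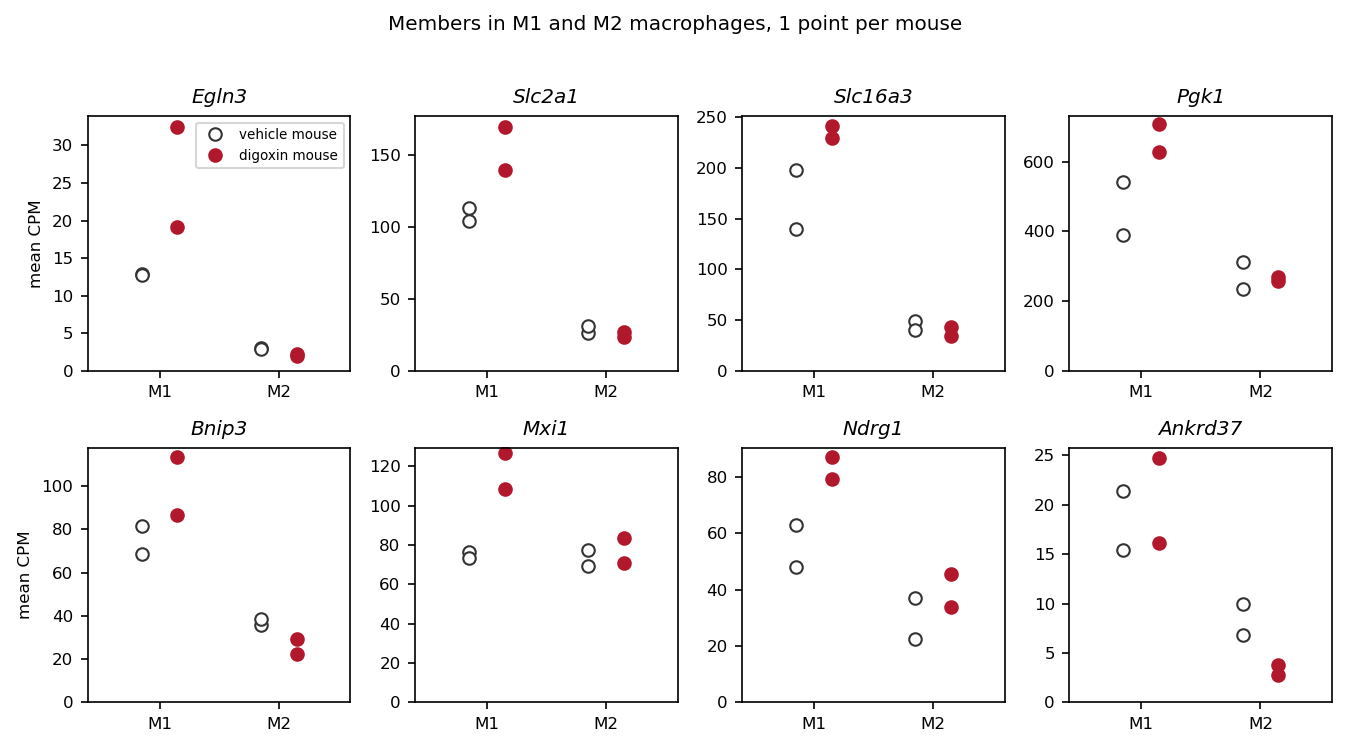
Mean CPM per mouse of 8 members in M1 and M2 macrophages, with open points for vehicle mice and filled points for digoxin mice, and each axis starting at 0. In M1 cells both digoxin mice lie above both vehicle mice for the first 7 members shown, and in M2 cells Bnip3, Egln3 and Ankrd37 lie below vehicle in both digoxin mice.

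M2 macrophages of the same mice did not share this direction. No member passed limma (0.0% of 12545 genes did) and 2 had an unadjusted p under 0.05 (2.28% of all genes). Hk2 and Eno2 lay above vehicle in both digoxin mice (15.0% of all genes did), and 10 members lay below in both (11.7% of all genes did). Without vehicle replicate 2 the numbers were 5 above (27.5% of all genes) and 25 below (40.2%), and without vehicle replicate 1 they were 12 above (46% of all genes) and 13 below (25.1%). The median log2 difference was -0.11 over the members, with 11 positive and 28 negative, and 0.02 over all genes. It was -0.01 without vehicle replicate 1 and -0.06 without digoxin replicate 1. The median mitochondrial share of M2 cells was 6.66%, 7.46%, 5.64% and 5.22%, lower in both digoxin mice, and its part in these differences was not tested. Ankrd37 was at 6.77, 9.99, 2.82 and 3.79 CPM, a log2 difference of -1.11 (limma SE 0.245, adjusted p 0.9997), and Bnip3 at 35.9, 38.4, 29.5 and 22.2 CPM, a log2 difference of -0.52 (SE 0.183), or -0.32 without digoxin replicate 2. Egln3 was at 3.02, 2.97, 2.19 and 1.98 CPM, also lower in both digoxin mice. Hk2 was at 52.3, 48.7, 57.6 and 56.4 CPM. Egln1, at 42.6, 27.7, 41.6 and 47.2 CPM, and Slc2a1, at 26.7, 31.5, 23.5 and 26.9 CPM, overlapped between groups. By edgeR and DESeq2 no member passed.

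The difference between the digoxin effects in M1 and M2 macrophages was tested with the mouse as a block. This test was added after the values in both were seen. No member passed limma (0.0% of 12841 genes did), while 15 of 39 had an unadjusted p under 0.05 (5.81% of all genes). All 15 had a higher log2 difference, digoxin minus vehicle, in M1 than in M2 cells (2.44% of all genes). This sign does not say in which cells the change was larger. The smallest p belonged to Bnip3, with a difference of 0.92 on the log2 scale (limma SE 0.119, unadjusted p 5.3e-05, adjusted p 0.170). Its digoxin effect was 0.40 in M1 and -0.52 in M2 cells. Pgk1 followed at 0.58 (SE 0.108), Egln3 at 1.28 (SE 0.249), Mxi1 at 0.57 (SE 0.116) and Slc16a3 at 0.72 (SE 0.155), with limma adjusted p-values of 0.560 to 0.599. The median difference over the members was 0.31, with 34 positive, and -0.04 over all genes, and it ran from 0.17 without digoxin replicate 1 to 0.38 without digoxin replicate 2. The number positive was 27 without digoxin replicate 1 or without vehicle replicate 1, and 34 without either of the other mice. Limma called 8 members without vehicle replicate 1 (1.95% of all genes) and 2 members, Bnip3 and Egln1, without vehicle replicate 2 (0.213% of all genes). The edgeR test called none.

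The same kind of test compared malignant cells with all non-malignant cells, of which macrophages made up 10363 of 12648. Among the non-malignant cells no member passed limma (0.0% of 14879 genes did) and 7 had an unadjusted p under 0.05 (3.9% of all genes), 6 higher (2.1% of all genes) and Adm lower (1.81% of all genes). Egln1 was at 35.4, 29.6, 50.0 and 56.8 CPM there and Egln3 at 7.69, 7.35, 15.2 and 9.58 CPM, both higher in both digoxin mice. Ankrd37 was at 13.6, 13.3, 12.8 and 9.40 CPM and Kdm3a at 20.3, 21.9, 19.5 and 18.8 CPM, both lower. Of 17 marker lists in these cells, the M1, neutrophil and mast cell lists lay above vehicle in both digoxin mice and the endothelial list below. The neutrophil markers summed to 164, 52.8, 1311 and 237 CPM. Their part in the members' differences was not tested. By edgeR no member passed, and DESeq2 called Egln1 and Ndrg1 (0.202% of all genes). For the difference in effect no member passed limma (0.0% of 16091 genes did), and 7 had an unadjusted p under 0.05 (4.06% of all genes, both directions together). All 7 had the lower log2 difference in malignant cells, and the share of all genes on that side alone is not given here. Slc16a3 had the smallest p, with a difference of -0.76 (limma SE 0.0820, adjusted p 0.560). Egln3 was at -0.98 (limma SE 0.216, adjusted p 0.9704), from an effect of -0.36 in malignant cells and 0.62 in the others. Egln1, with 0.78 and 0.70, had a difference between compartments of 0.07 (SE 0.227), which ran from -0.23 without vehicle replicate 1 to 0.37 without vehicle replicate 2. Without vehicle replicate 1 limma called 5 members, Bhlhe40, Bnip3, Ndrg1, Slc16a3 and Slc2a1, of 130 genes called (0.807% of all genes).

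Egln1 and Hk2 had both digoxin mice above both vehicle mice in more populations than any of the other 37 members. Of the 9 populations that do not overlap in cells and in which each could be tested, this held in 7 for either gene, and Ndrg1 followed with 5 of 10. Of 1989 genes tested in 9 of these populations, 4 (0.201%) were above in 7 or more, and of 5029 tested in 10, 6.34% were above in 5 or more. The log2 differences of Egln1 ran from 0.36 to 0.95. In T cells it was at 30.8, 38.5, 60.4 and 68.6 CPM (log2 difference 0.88, limma SE 0.226, adjusted p 0.872). In NK cells it was at 19.7, 24.2, 36.9 and 40.8 CPM (log2 difference 0.80, limma SE 0.236, adjusted p 0.654). In fibroblasts it was at 35.4, 50.2, 58.8 and 113 CPM, in osteoclasts at 15.8, 14.5, 23.3 and 20.04 CPM and in Highly proliferative M2 macrophages at 36.4, 27.0, 45.1 and 48.9 CPM. Labelled Epithelial cells, at 35.2, 57.2, 54.1 and 62.1 CPM, and M2 macrophages were the 2 with overlap. Its unadjusted p was under 0.05 in 6 of the 9, and its adjusted p was 0.196 to 0.9999. The populations come from the same 4 mice and are not independent tests of digoxin. Among populations too small to test, neutrophils had 38.9, 79.8, 39.8 and 40.9 CPM.

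Hk2, the hexokinase that takes glucose into glycolysis, had log2 differences from 0.10 to 1.31 in its 9 populations, with an unadjusted p under 0.05 by limma in 3 of them and an adjusted p of 0.722 to 0.9999. In M1 macrophages it was at 80.9, 87.9, 109 and 90.01 CPM, and in Highly proliferative M2 macrophages at 36.6, 31.6, 42.3 and 46.0 CPM. In fibroblasts, where its level was highest, it was at 189.9, 192, 226 and 289 CPM. NK cells, at 11.6, 17.0, 10.8 and 25.9 CPM, and labelled Epithelial cells, at 7.25, 5.71, 7.46 and 6.54 CPM, had overlapping groups.

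**Figure D5:**
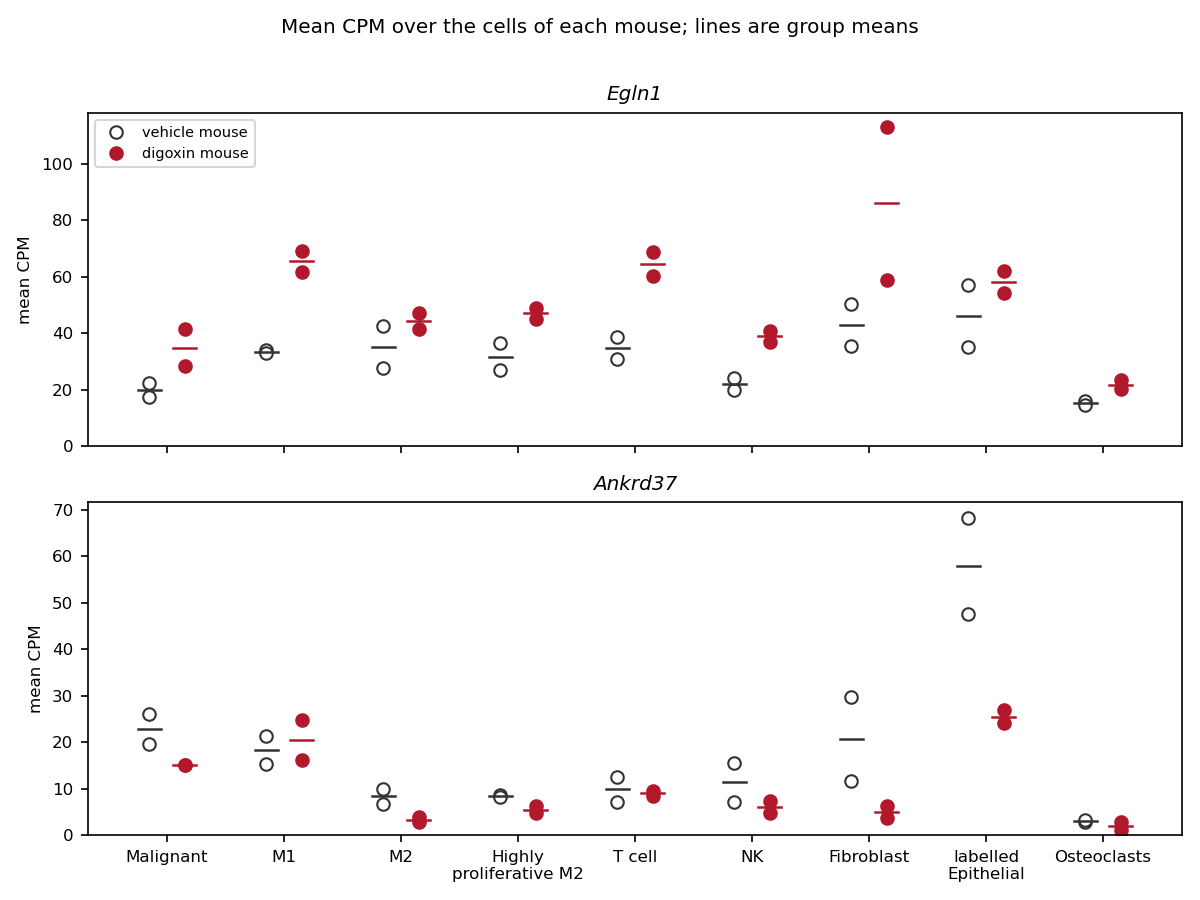
Mean CPM of Egln1 (top) and Ankrd37 (bottom) per mouse in 9 populations, with open points for vehicle mice, filled points for digoxin mice and lines at group means. Both digoxin mice lie above both vehicle mice for Egln1 in 7 populations, and below them for Ankrd37 in malignant cells, M2 and Highly proliferative M2 macrophages, fibroblasts and labelled Epithelial cells.

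Ankrd37, a small ankyrin-repeat gene known as a HIF target, had values mainly on the other side. It could be tested in 8 such populations, and both digoxin mice were lower than both vehicle mice in 5. Of 1061 genes tested in 8, 1.79% were lower in 5 or more. In fibroblasts it was at 11.6, 29.7, 3.69 and 6.24 CPM, a log2 difference of -1.76 (limma SE 0.558, adjusted p 0.9994), and -1.12 without vehicle replicate 2. In Highly proliferative M2 macrophages it was at 8.59, 8.28, 6.18 and 4.80 CPM. M1 macrophages, at 21.4, 15.4, 24.7 and 16.1 CPM, T cells and NK cells had overlapping values. In neutrophils, without a test, it was at 66.7, 147, 11.7 and 40.7 CPM.

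Labelled Epithelial cells, which carry endothelial markers, had members mainly on the low side with digoxin. Of 33 members tested none passed limma (0.467% of 10272 genes did), but 9 had an unadjusted p under 0.05 (5.77% of all genes), all 9 lower (2.18% of all genes) and 0 higher (3.59% of all genes). Both digoxin mice were lower than both vehicle mice for 14 members (16.3% of all genes) and above for Epas1 alone (17.8% of all genes). Without vehicle replicate 2 the numbers were 17 lower (33.7% of all genes) and 12 above (34.7%), and without vehicle replicate 1 they were 22 lower (34.6%) and 4 above (36.7%). Ankrd37 was at 47.5, 68.3, 24.0 and 26.9 CPM, a log2 difference of -1.13 (limma SE 0.243, adjusted p 0.0979). Adm was at 91.5, 120.4, 64.9 and 40.8 CPM, a log2 difference of -1.01 (limma SE 0.237, adjusted p 0.156). Egln3 was at 18.2, 26.0, 11.1 and 8.50 CPM and Slc2a1 at 66.5, 90.5, 44.8 and 56.3 CPM. Pgk1 was at 314, 338, 239 and 249 CPM, Aldoa at 571, 700.0, 482 and 475 CPM and Tpi1 at 291, 387, 232 and 254 CPM. All of these were lower in both digoxin mice, and Epas1 was at 279, 237, 314 and 309 CPM. By edgeR and DESeq2 no member passed.

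Markers of other cell types moved with the groups in the labelled Epithelial cells. Of 17 lists, 6 lay above vehicle in both digoxin mice (macrophage, M1, B cell, dendritic, microglia and mast cell) and 1, the T cell list, below. The 7 macrophage markers summed to 373, 759, 924 and 1084 CPM and the 6 M1 markers to 149, 123, 224 and 336 CPM, with Il12b at 0. The median mitochondrial share was lower in both digoxin mice as well, and the part of these shifts in the members' differences was not tested. The 4 mast cell markers summed to 59.4, 183, 3199 and 3900.1 CPM, and Cpa3 UMIs were found in 0 of 80, 1 of 98, 5 of 83 and 6 of 86 cells. In the 72, 91, 73 and 75 cells with a UMI of the endothelial genes Cdh5 or Pecam1 and none of Cpa3, the mast cell markers summed to 66.0, 81.0, 68.0 and 46.0 CPM. In those cells 13 of the same 33 members lay below vehicle in both digoxin mice (14.5% of all genes) and 2 above (17.9% of all genes). The median log2 difference was -0.21 over the members and 0.02 over all genes, with -0.21 over the members in all labelled Epithelial cells. Ankrd37 was at 41.1, 70.7, 27.0 and 28.8 CPM there and Adm at 102, 130, 73.7 and 46.8 CPM. This choice of cells was made after the values were seen. Vehicle replicate 2 was the highest mouse for Ankrd37 and Adm in both sets of cells: without it the median over the members was -0.08, and without vehicle replicate 1 it was -0.34 and limma called 7 members, all lower, of 341 genes called (3.2% of all genes).

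Smaller populations had 1 to 5 members with an unadjusted p under 0.05 by limma, and no member passed the adjusted test in any of them. The median log2 difference over the members was 0.19 in fibroblasts, 0.09 in osteoclasts and 0.05 in Highly proliferative M2 macrophages. It was 0.01 in labelled Microglia, -0.08 in NK cells and -0.14 in T cells. Over all genes it was -0.04, 0.03, 0.02, 0.01, 0.02 and -0.02 in the same order. Marker lists moved there too. Of 17 lists, 7 lay above vehicle in both digoxin mice in NK cells, the macrophage list among them, and 0 below. In fibroblasts 4 lay above and 1 below, and in T cells 2 above and 4 below. In osteoclasts 2 lay above and 3 below, among these the osteoclast list at 26087, 37198, 21966 and 24453.5 CPM. In Highly proliferative M2 macrophages 2 lay above and 2 below, and in labelled Microglia 3 above and 0 below. The part of these lists in the values was not tested. In T cells 3 of 34 members tested had an unadjusted p under 0.05 (4.28% of 8930 genes), Egln1, Hk1 and Pfkfb3. Pfkfb3 was at 17.2, 23.1, 10.6 and 11.7 CPM, Pdk1 at 15.4, 17.9, 12.2 and 10.4 CPM and Hk2 at 22.8, 26.9, 32.1 and 35.5 CPM, without overlap between groups. Without vehicle replicate 1 limma called Tpi1 as lower (2.17% of all genes were called), and without vehicle replicate 2 it called Egln1 as higher (0.776% of all genes). In NK cells 0 of 32 members passed limma (0.0765% of all genes did) and 4 had an unadjusted p under 0.05 (6.28% of 9147 genes). There Bhlhe40 was at 279, 261, 231 and 205 CPM, Mxi1 at 7.92, 6.02, 11.1 and 13.6 CPM and Slc2a3 at 22.5, 20.1, 16.2 and 14.3 CPM. None of these overlapped between groups.

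In fibroblasts 3 of 36 members had an unadjusted p under 0.05 (2.97% of 9292 genes), Egln1 and Car9 higher (1.11% of all genes) and Ankrd37 lower (1.86% of all genes), and DESeq2 called 0 (0.0108% of all genes). Car9 was at 4.85, 2.06, 10.4 and 28.5 CPM, a log2 difference of 2.11 (limma SE 0.643, adjusted p 0.9994), and Vhl at 18.0, 22.5, 13.01 and 14.9 CPM. Without vehicle replicate 1 limma called 4 members, Ankrd37, Bhlhe40, Car9 and Hif1a, of 462 genes called (4.69% of all genes). In osteoclasts 2 of 30 had an unadjusted p under 0.05 (6.38% of 7803 genes). Hk2 was at 9.70, 12.3, 24.8 and 32.9 CPM there and Aldoc at 97.9, 82.8, 49.9 and 53.5 CPM, on opposite sides of vehicle. Vhl was at 6.43, 4.86, 11.7 and 11.2 CPM and Pdk1 at 38.1, 42.5, 30.5 and 28.3 CPM in the same cells. In Highly proliferative M2 macrophages 5 of 36 had an unadjusted p under 0.05 (3.94% of 11459 genes), among them Mxi1 at 48.2, 49.3, 63.5 and 62.9 CPM and Vhl at 13.1, 12.4, 9.29 and 9.37 CPM, and limma called Egln1 without vehicle replicate 1 (2.18% of all genes). In labelled Microglia 1 of 20 did (4.78% of 5818 genes), on the higher side (2.9% of all genes, with 1.87% lower), and DESeq2 called 0 (0.0172% of all genes). That gene was Tpi1, at 75.9, 76.8, 143 and 104 CPM. There Ndrg1 was at 10.8, 12.2, 21.2 and 22.5 CPM, and Higd1a, a mitochondrial hypoxia-induced gene, at 77.7, 87.9, 75.1 and 76.9 CPM.

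Of the other genes of the pathway, 86 listed and 79 present in either table, 1 passed limma in 1 of the 12 populations tested. This was Angptl4, a secreted inhibitor of lipoprotein lipase, in labelled Epithelial cells, 1 of 61 tested there (0.467% of all genes). It was at 94.3, 116, 48.2 and 54.5 CPM, lower in both digoxin mice, with a log2 difference of -1.01 (limma SE 0.185, adjusted p 0.0484). The call held in 4 of 12 alternatives, with adjusted p-values from 4.0e-04 to 0.9994, and the difference was negative in all 12. On summed UMIs the log2 difference was -0.59 by edgeR (adjusted p 0.928), -0.59 by DESeq2 (adjusted p 0.9994) and -0.55 by limma (adjusted p 0.9985), and the call was lost. It was also lost without either digoxin mouse, without marked doublets (limma adjusted p 0.0579), without the filter on low values and with the mitochondrial limit. In the cells with an endothelial UMI and no Cpa3 UMI it was at 105, 123, 53.6 and 61.6 CPM. In malignant cells 7 of 78 tested had an unadjusted p under 0.05 by limma (3.41% of all genes), 3 higher (1.65%) and 4 lower (1.77%), and 0 passed the adjusted test. Tmem45a was at 15.8, 18.0, 13.3 and 11.7 CPM and Cxcr4, a chemokine receptor, at 4.29, 4.21, 3.43 and 2.86 CPM, each lower in both digoxin mice. In macrophages 7 of 73 had an unadjusted p under 0.05 (4.04% of all genes), 5 higher (2.4%) and 2 lower (1.64%). Hilpda, a lipid droplet gene induced by hypoxia, was at 143, 101, 252 and 185 CPM, a log2 difference of 0.84 (limma SE 0.208, adjusted p 0.9996). Rora, a nuclear receptor, was at 8.59, 10.1, 5.83 and 6.14 CPM there, lower in both digoxin mice. In M1 macrophages DESeq2 called 2 of 69 tested (0.345% of all genes), Hilpda among them, and limma and edgeR called 0.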

How the data were processed

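Single-cell RNA libraries from 2 vehicle and 2 digoxin mice were analysed; groups come from the labels. The 2 deposited expression tables hold natural log values, ln(1 + UMIs per 10000 UMIs of the cell), as found from the values and the deposited cell metadata, whose columns give UMI counts, genes and mitochondrial percent per cell. Multiplying back by the deposited count total gave whole UMIs, within 0.01, for 100% of values, and sums equal to the deposited total in all 31611 cells. Cell Ranger 3.0.2, Seurat 3.0.2 and mm10 are named in the submitters' processing notes, with no role; cell filters and the rule that called cells malignant are not given in the sources used here. The authors' deposited population names were used as given.

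Mean CPM over the cells of a mouse was compared as log2(mean CPM + 1) with limma 3.58.1 in R 4.3.3 (trend, Benjamini-Hochberg over all genes passing edgeR's filterByExpr on summed UMIs, threshold 0.05), in populations with at least 20 cells in every mouse. A fold on this scale understates the change of low genes. Differences between populations in the digoxin effect used the mouse as a block. Alternatives were edgeR 4.0.16 quasi-likelihood and DESeq2 1.42.0 on recovered UMIs, CPM of summed UMIs, a pseudocount of 10, no filter, the replicate block, each mouse left out, cells without Scrublet marks, cells up to 20% mitochondrial UMIs and, for non-malignant cells, those with a population name. Scrublet, through scanpy 1.11.5, marked 1404 of 31611 cells (4.44%), which were kept in the values reported. The fit functions were also run on simulated summed UMIs of malignant cells and M1 macrophages at a fixed dispersion. That is no check of the means over cells used in the main fit. Nothing says whether the mice were separate experiments, so p-values measure the spread between these animals only, and 2 against 2 leaves few degrees of freedom.

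The members and gene lists were chosen with earlier results of these data known. Values per mouse are given for 19 set members in malignant cells and macrophages, and for members at 5 CPM or more whose groups did not overlap, up to 6 per direction there and 2 per direction elsewhere, by log2 difference. Between populations, the 4 highest and 4 lowest mean log2 ratios, on the log2(mean CPM + 1) scale, are given, and of the other pathway genes the 3 with the smallest p. Further genes were chosen after their values were seen. A gene of the pathway list is not reported here.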

Additional observations from a re-analysis of the deposited data

Results flagged for a closer look

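For 7 differences in the digoxin effect, the members' values lay on opposite sides of vehicle in both digoxin mice of each of the 2 populations compared. Of all genes at 1 CPM or more in a group of both populations, 1.89% of 11174 did so between malignant and non-malignant cells and 2.56% of 11200 between M1 and M2 macrophages. None of the 7 passed limma after adjustment over all genes. Between malignant and non-malignant cells, Egln3 differed by -0.98 on the log2 scale, Aldoa by -0.26, Pgk1 by -0.35 and Higd1a by -0.30, each with a limma adjusted p of 0.9704 and with the lower effect in malignant cells. In the same order the effects were -0.36, -0.07, -0.03 and -0.14 in malignant cells, and 0.62, 0.19, 0.32 and 0.16 in the others. For Pgk1 the malignant effect was thus close to none. Between M1 and M2 macrophages, Egln3 differed by 1.28 (limma adjusted p 0.580), Tpi1 by 0.32 (limma adjusted p 0.831) and Bnip3 by 0.92 (limma adjusted p 0.170), with the higher effect in M1 cells. The differences of Aldoa, Pgk1 and Higd1a were -0.15, -0.12 and -0.18 without vehicle replicate 2, and without digoxin replicate 1 that of Tpi1 was 0.17. Without the 30 non-malignant cells of no population name, all from vehicle replicate 2, the difference of Egln3 was -1.11 (limma adjusted p 0.988). The M1 share of macrophages was lowest in vehicle replicate 2, at 29.0%, and its part in these differences was not tested.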

How the results depend on the processing

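By limma, 0 members were called in each of 12 populations and in both differences between populations, and edgeR and a pseudocount of 10 also gave 0 in all of them. In the 12 populations, CPM of summed UMIs, no filter, removal of marked doublets and the mitochondrial limit gave 0. DESeq2 called 1 member in malignant cells, 2 in non-malignant cells, 2 in macrophages and 2 in M1 macrophages. Leaving out 1 mouse at a time gave 0 to 7 members in labelled Epithelial cells, 0 to 4 in fibroblasts, 0 to 2 in macrophages, 0 to 1 in T cells, 0 to 4 in M1 macrophages, 0 to 1 in Highly proliferative M2 macrophages, 0 to 5 for malignant minus non-malignant cells and 0 to 8 for M1 minus M2 macrophages. The cause was not tested. Where 1 mouse is left in a group, it is assumed to vary like the other group. Without vehicle replicate 2, 20 members in place of 13 lay lower in malignant cells than in macrophages in every mouse, and 5 in place of 3 lower in M1 than in M2 cells. Values of single members were followed only for those named above for groups without overlap in malignant cells and in macrophages, none of them called in the main fit. Of these 212 values, 207 kept their side of the threshold, 5 passed it only in the alternative and 0 reversed. Because the groups did not overlap, leaving out 1 mouse could not reverse a direction. The other populations and the differences between populations are not in this count. With the replicate number as a block, 0 members were called in every population. Leaving out the unnamed cells, chosen after the data were seen, also gave 0 in non-malignant cells and in their difference from malignant cells. Over all genes the block gave 57 calls in place of 0 in T cells, 85 in place of 48 in labelled Epithelial cells, 23 in place of 7 in NK cells, 3 in place of 1 in osteoclasts and 2 in place of 0 in non-malignant cells. The deviations of same-numbered mice had an r of -0.363 in malignant cells and of -0.155 to 0.0608 in the other populations. With 2 mice per group this cannot decide whether the numbers pair the mice. The crossed pairing, added after the data were seen, called 0 genes in malignant cells and 40 genes, 0 of them members, in labelled Microglia.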

Other observations

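The authors left 30 cells without a population name, all from vehicle replicate 2, with a median of 54783.5 UMIs per cell. In these cells Egln3 was at 143 CPM, Slc2a1 at 110.2 CPM, Gapdh at 2419 CPM, Eno1 at 771 CPM, Aldoa at 1048 CPM and Pkm at 1307 CPM. They come from 1 mouse and enter no comparison as a population, but they are among the non-malignant cells of that mouse. Without them Egln3 was at 5.99 in place of 7.35 CPM in the non-malignant cells of vehicle replicate 2. Its log2 difference there was 0.75 (limma SE 0.244) in place of 0.62, and the malignant difference less the non-malignant one was -1.11 (limma SE 0.267, adjusted p 0.988). Limma then called 0 members and 0 of all genes in either comparison, and 7 members had an unadjusted p under 0.05 in each. Of all genes, 574 of 14864 had one in the non-malignant cells and 643 of 16085 for the difference.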
